A study of Mus musculus with 3 samples.

Results

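Small RNAs of 24 to 28 nt that begin with A were taken from the deposited list of sequences recovered with Tdrd1 or Mili from mouse testis. A sequence was counted when its listed name, which is the sequence itself, had 24 to 28 letters and A as the first letter. There were 263317 such sequences, 11.9% of the 2219118 distinct sequences of the list and 15.2% (95% interval 15.1 to 15.2%) of the 1735253 sequences of the same size. The series holds 3 libraries of C57BL/6 testis, 1 per group. One was made from a Mili immunoprecipitate of Tdrd1 knockout testis at 15 days after birth, one from Mili immunoprecipitated from the testis of wild-type adults, and one from Tdrd1 immunoprecipitated from adult testis whose genotype the labels do not give. The list pools all 3, names each sequence once with 1 position, and records neither a library nor a read number. Differences between knockout and wild type, or between Tdrd1 and Mili, could therefore not be examined. The values below are shares of distinct sequences in the pooled list, the depth of each library is unknown, and a rare and an abundant RNA weigh the same.

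Mili, encoded by Piwil2, is a Piwi protein of male germ cells that carries small RNAs called piRNAs, and Tdrd1 is a Tudor-domain protein that binds Mili. Piwi proteins favour RNAs whose first base is U, because the base at the 5′ end is held in a pocket of the protein. A piRNA that begins with another base can come from the ping-pong cycle, where one piRNA guides the cut that makes the next. The new RNA then carries A at position 10, opposite the first U of its guide.

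Some of the sequences themselves show the forms these RNAs take. In the sequences printed here T stands for U, positions are 1-based on mm9, and all are written 5′ to 3′. The first set holds the longest listed A-starting sequence of 24 to 28 nt at the 5′ ends that had the most 3′ ends in the list, with the first A in capitals.
Start 1: Atgcattgtaggatgattggcactatcc
Start 2: Aggagtggagcctgcggcttaatttgac
Start 3: Aagaaccctgaaaaacaagtctttattc
Start 4: Atctgtgaaatgagggagttggactaga
Start 5: Aagcaaacgtagtggaactggcccgagg
Start 1, chr8:112646911-112646938 on the plus strand, was listed with 13 different 3′ ends giving lengths of 18 to 31 nt, of which 5 lengths fall in the range of 24 to 28 nt. Start 2 lay at chr17:39984524-39984551 on the plus strand, sense to the noncoding gene Gm42418 and antisense to CT010467.1, which is annotated as rRNA. It was listed with 12 ends, as was start 3 at chr17:66559894-66559921. Start 4 at chr10:75319856-75319883 and start 5 at chr14:24903422-24903449 had 11 each. Starts 1, 3, 4 and 5 matched no annotated exon.

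A second set shows A-starting sequences with a U-starting sequence that begins 1 nt further on and ends at the same base. Capitals mark the first A and the U beside it.
Set 1, A-starting: ATgcattgtaggatgattggcactatcc
Set 1, U-starting: Tgcattgtaggatgattggcactatcc
Set 2, A-starting: ATgttagaactggcagaaagtagtctca
Set 2, U-starting: Tgttagaactggcagaaagtagtctca
Set 3, A-starting: ATctgtgaaatgagggagttggactaga
Set 3, U-starting: Tctgtgaaatgagggagttggactaga
Set 4, A-starting: ATgaactcagaagataaagtgcccttca
Set 4, U-starting: Tgaactcagaagataaagtgcccttca
These are the 4 such sets with the most listed sequences. In set 1 the A start had 13 listed 3′ ends and the U start 11. In set 2, chr4:61882290-61882317 on the minus strand, the A start had 6 and the U start 15. In set 3, which is start 4 above, there were 11 for the A start and 8 for the U start. In set 4, chr15:59108312-59108339 on the plus strand, they were 8 for the A start and 11 for the U start. Either start can thus have the larger number of listed forms.

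The third set shows A-starting sequences whose 5′ end overlaps that of a sequence of the opposite strand by 10 nt, the spacing of the ping-pong cycle. Capitals mark the 10 shared bases, which are complementary between the sequences of a pair.
Pair 1, A-starting: ATGAATCGTAtaaaagtgaccaagagg
Pair 1, partner: TACGATTCATcaaggacccgagtttagaga
Pair 2, A-starting: AGAGTTAGAAaaagggggtgggggaca
Pair 2, partner: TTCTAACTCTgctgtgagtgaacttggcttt
Pair 3, A-starting: AGAACTACGAagggtgagctaactcag
Pair 3, partner: TCGTAGTTCTttctgcactctggctggctg
They are the A-starting sequences with the most listed partners, 7 each, all from 1 start of the opposite strand. The A-starting sequence of pair 1 lay at chr10:66160044-66160070 on the plus strand, that of pair 2 at chr5:113782233-113782259 on the minus strand, and that of pair 3 at chr17:27433869-27433895 on the plus strand. The 3 partners begin with U, so each of the 3 A-starting sequences has A at position 10, the last capital. The partner shown is the longest listed at its start, 30, 31 and 30 nt, while each A-starting sequence measures 27 nt. The shortest partners listed at the same starts measured 24, 25 and 24 nt, so the lengths shown follow from that choice.

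A was more frequent as the first base of the shorter RNAs. At 24 nt 20.1% of sequences began with A (19.8 to 20.4%), at 25 nt 17.0%, at 26 nt 15.6%, at 27 nt 14.9% and at 28 nt 13.6% (13.4 to 13.7%). The lengths just outside the chosen range continued this order, with 21.7% at 23 nt (5488 sequences) and 12.2% at 29 nt (31613 sequences). Below that, the share fell again to 13.6% at 20 nt. Within 24 to 28 nt the A-starting sequences averaged 26.5 ± 1.11 nt and the U-starting ones 26.7 ± 1.07 nt (SD over 263317 and 1165106 sequences). G-starting sequences also averaged 26.5 nt, and C-starting ones 26.6 nt. Of the sequences of this size, 67.1% began with U, 9.06% with C and 8.62% with G, so that A was the most frequent base after U.

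Compared with U-starting sequences, the bases next to the first A were rich in A and poor in U. At position 2, A-starting sequences had G in 35.8%, A in 33.5%, C in 16.7% and U in 14.1%. U-starting sequences had A in 28.7% and U in 17.1% there. After a first C or G, A was more frequent still at position 2, with 45.9% and 48.4%, and U stood there in 26.2% and 15.9%. At position 3 C-starting sequences had A in 32.3% and G-starting ones in 41.8%. A stood at position 3 in 39.4% of A-starting against 33.4% of U-starting sequences, and at position 4 in 39.3% against 34.8%. At position 5 the order was the other way, with A in 41.1% of A-starting and 42.4% of U-starting sequences. The differences at positions 2 and 3 had the same direction on each of the 20 chromosomes with 1000 or more A-starting sequences, where A at both was more frequent and U at position 2 less frequent than after a first U.

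The base after the first A also differed from the base after an A further inside the same RNAs. The inner A bases at positions 11 to 20, of which there were 827466, were followed by A in 28.8%, G in 35.1%, C in 18.4% and U in 17.7%. The first A was thus followed more often by another A and less often by U than the inner ones. The triplet AAA opened 11.3% of A-starting sequences and made up 8.01% of the inner triplets that begin with A, a ratio of 1.41. AGA was the most frequent opening with 16.1% (ratio 1.11), followed by AAG with 11.8% (1.07). ACG had the lowest ratio, 0.553, with 1.39% of openings, and AUG, the triplet of the start codon, opened 4.66% at a ratio of 0.652.

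Long runs of A at the 5′ end were rare. At least 3 A bases opened 11.3%, at least 6 opened 0.730% (1922 sequences) and at least 10 opened 0.103% (272 sequences). Over positions 2 to 24 A-starting sequences had 32.8% A and 20.6% U, against 31.6% A and 22.8% U in U-starting ones. The G-starting sequences, with 32.7% A and 20.8% U, lay closest to the A-starting ones.

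A at position 10, the mark of the ping-pong cycle, was only slightly more frequent than at the positions beside it. It was found in 33.4% of A-starting sequences (33.3 to 33.6%), with 32.3% A at position 9 and 31.7% at position 11. In U-starting sequences A stood at position 10 in 31.3%, and A-starting sequences had the higher share on 19 of 20 chromosomes. The difference of about 1 to 2 points from positions 9 and 11 exceeds the counting error, which does not cover the dependence between sequences of 1 precursor.

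Strand is not part of the list and was inferred from sequences that overlap. A strand could be given to 83.0% of A-starting sequences (218589), of which 50.2% lay on the plus strand, and to 77.2% of U-starting ones. A strand needs a listed neighbour, so the values on neighbours that follow hold for RNAs from places with several sequences. Where a transcript match allowed a check, 99.9% of the inferred strands were the same as those from the match.

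Most A-starting RNAs lay close to a U-starting one. Of those with a strand, 81.2% (81.1 to 81.4%) had a listed U-starting 5′ end within 10 nt on the same strand, 67.7% within 5 nt and 41.1% within 2 nt. C-starting sequences had higher shares, with 84.0% within 10 nt and 50.5% within 2 nt, and G-starting ones had 82.9% and 43.4%. An A start was thus less often right beside a U start than a C start was. By exact distance, a U-starting 5′ end lay 2 nt upstream of 18.5% of A starts, 3 nt upstream of 15.96% and 1 nt upstream of 14.0%. Downstream the shares were 10.04% at 1 nt, 8.52% at 2 nt and 11.1% at 3 nt. At 10 nt they were 8.47% upstream and 7.10% downstream.

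Part of this depends on where U occurs, since a U-starting RNA can begin 1 nt downstream only where position 2 is U. Among the 30952 A-starting sequences that begin with AU and have a strand, 70.9% (70.4 to 71.4%) had a listed U-starting 5′ end at that U. For a U further downstream the share was lower, with 58.7% at 2 nt, 50.8% at 3 nt, 44.8% at 5 nt and 32.9% at 10 nt. With a U at position 2 the share at 1 nt was 74.6% for C-starting, 61.9% for U-starting and 58.9% for G-starting sequences. Upstream, where the base could be read only if another listed sequence covered it, the A-starting share was 83.9% at 1 nt, 76.9% at 2 nt, 72.0% at 3 nt and 74.99% at 4 nt. A listed U start there supplies its own base, while a U without a start can go unread. The upstream shares may thus run high and cannot be set beside the downstream ones. Over all 37000 A-starting sequences that begin with AU, strand or not, the share at 1 nt downstream was 59.3%. There were 21954 A-starting sequences with a U start 1 nt downstream. Of these, 63.4% (62.7 to 64.01%) ended at the same base as a U-starting sequence of that start, as in the second set above.

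The 4 kinds of start, set by the base at position 2, differed mainly in the share with a U start within 2 nt. The grouping itself favours AU here, since a U start right after the first A is possible only where position 2 is U. The higher share of AU sequences thus does not show a property beyond their second base. The share without that place was not tested. Sequences beginning with AU had a U start within 2 nt in 77.5%, those with AC in 40.6%, AA in 36.9% and AG in 30.8%. They were otherwise close to each other, with mean lengths between 26.5 and 26.6 nt, 22.7% (AC) to 27.4% (AU) in the 100 richest windows of the genome, and A at position 10 in 32.96% (AG) to 33.9% (AA). AC starts had the largest share in protein-coding exons, 58.2%, against 51.2% for AG, 51.3% for AA and 53.1% for AU.

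The base before the 5′ end was read from the transcripts that the sequences matched. It was A in 34.2% of A-starting sequences, G in 25.8%, C in 23.3% and U in 16.7%. For U-starting sequences C was the most frequent with 32.5% and G the least with 11.5%. The G-starting sequences had A there in 52.1%, and C in 6.04%. A was thus more frequent on both sides of a first A than beside a first U.

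The 3′ ends were often shared. Of A-starting sequences 32.98% (32.8 to 33.2%) ended at the last base of a listed U-starting sequence, against 24.8% of U-starting sequences that shared their end with another U-starting one. C-starting sequences had 38.1% and G-starting ones 34.8%. Sharing was more frequent inside the 100 richest windows than outside, 50.4% and 25.03%. The A-starting share was below the C-starting one on each of the 20 chromosomes compared.

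In phased processing one piRNA ends where the next begins, and U is then frequent just after a 3′ end. U was not frequent there for A-starting RNAs. The next base was U in 23.5% of A-starting sequences (23.3 to 23.7%) when read from overlapping sequences, and in 22.7% when read from transcripts. For U-starting sequences it was 25.8% and 25.9%. A was the most frequent next base, with 32.4% after A-starting and 30.1% after U-starting sequences. On the 5′ side, a listed 3′ end of the same strand lay 1 nt before the start of 13.4% of A-starting sequences (13.2 to 13.5%). Distances of 2 to 20 nt before the start gave 12.7 to 13.3%. Listed 5′ ends that follow the 3′ ends of A-starting sequences were not counted.

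A starts had fewer listed forms than U starts. The 165124 distinct A-starting 5′ ends had a mean of 1.32 sequences of 24 to 28 nt, and the 556501 U-starting ones 1.62. At least 3 lengths were listed at 7.34% of A starts (7.21 to 7.46%) and at 15.3% of U starts, and 1 length only at 78.0% and 61.3%. All 5 lengths were listed at 1049 A starts, 0.635%, and at 1.73% of U starts. C starts (mean 1.31) and G starts (1.34) were close to A starts. Since the list gives no read numbers, the number of lengths is no measure of abundance.

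Protein-coding transcripts were the main source that could be named. In the sense direction they matched 52.6% of A-starting sequences (52.5 to 52.8%) and 49.3% of U-starting ones. No annotated exon matched 39.8% and 43.5%. Long noncoding RNAs took 4.29% and 3.68%, pseudogenes 0.727% and 0.549%, and matches antisense to an exon alone 2.34% and 2.89%. Structural RNAs (such as ribosomal and small nucleolar RNAs) made up 0.143% of A-starting and 0.0486% of U-starting sequences, and microRNA genes 0.0586% and 0.0329%. Read the other way, A was the first base of 27.3% (24.99 to 29.8%) of sequences from structural RNAs, 21.02% from microRNA genes, 18.5% from pseudogenes, 16.6% from long noncoding RNAs, 15.98% from protein-coding exons, 14.2% without an exon match and 12.8% from antisense matches.

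Within mRNAs, A-starting RNAs came more from coding sequence than U-starting ones did. The coding sequence held 53.8% of them (53.5 to 54.0%), where the lengths of the same transcripts give 50.3%. The 3′ untranslated region held 41.7% against 42.5% by length, and the 5′ untranslated region 4.57% against 7.23%. U-starting sequences had 37.7% in coding sequence, where length gives 44.2%, and 58.3% in 3′ untranslated regions, where length gives 49.2%. The C-starting (50.7% coding) and G-starting sequences (53.2%) resembled the A-starting ones.

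The regions differed in A starts more than in A content. A began 20.1% of sequences in coding sequence, 17.1% in 5′ and 12.6% in 3′ untranslated regions. The A content of these regions was 27.2%, 21.03% and 26.1%, so that the ratio of first-base share to content was 0.738 in coding sequence, 0.811 in 5′ and 0.484 in 3′ untranslated regions. For U the same ratios were 2.69, 2.93 and 2.49. For C they were 0.455, 0.348 and 0.370, and for G 0.397, 0.390 and 0.284. A was used less often as a first base than it occurs in all 3 regions, but its ratio was above those of C and G in each. The shortfall of A was largest in 3′ untranslated regions, as was that of G, while that of C was largest in 5′ untranslated regions.

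In coding sequence the A starts followed the reading frame about as A itself does. They fell on codon position 1 in 31.2%, on position 2 in 40.4% and on position 3 in 28.4%. The A bases of the same coding sequences were spread as 33.7%, 40.5% and 25.8%. For U starts positions 2 and 3 held 38.2% and 41.1%, where the U content gives 38.4% and 35.8%. Both kinds of start thus had a small excess at position 3.

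Many A-starting RNAs came from a few places. The 100 windows of 20 kb that were richest in sequences of the list held 26.3% of them (69227), against 18.6% of U-starting, 27.8% of C-starting and 28.8% of G-starting sequences. Inside these windows A began 18.6% and U 58.2% of sequences of 24 to 28 nt, and outside them 14.2% and 69.6%. A-starting sequences averaged 26.2 nt inside and 26.6 nt outside. They had more lengths per start, 1.69 against 1.20, and a U start lay within 2 nt of 50.8% inside and of 36.6% outside. An exon was matched by 15.5% inside and 76.2% outside.

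The windows with the most A-starting sequences were long piRNA clusters. The window chr17:27460001-27480000 held 2461 (20.6% of its sequences of this size) and its neighbours from 27440001 and from 27480001 held 2064 (19.1%) and 1841 (18.9%). The strand of the A-starting sequences turned between them, with 1.11% on the plus strand left of the middle window, 88.6% within it and 99.1% right of it. The window chr9:67560001-67580000 held 2103 (20.8%), with 0.572% plus, and chr6:127740001-127760000 held 1678 (20.1%), with 74.1% plus.

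Among the 116 windows with 1000 or more sequences of this size the share beginning with A ran from 9.80% to 27.3%, with a median of 17.9%. The highest was at chr7:130140001-130160000 (27.3%, 24.6 to 30.1%), which holds Rbbp6 and whose sequences had 39.8% A at positions 2 to 24. Next came chr17:39980001-40000000, the window of the rRNA-like CT010467.1, with 25.8%. It differed from the first in having little A (23.8%) and the lowest U share of the windows named here, 23.1%. The window chr8:125400001-125420000, over Ankrd11, had 23.4%, and chr8:94700001-94720000 had 22.4%. The lowest were chr1:172120001-172140000 with 9.80% (8.14 to 11.7%), chr1:133920001-133940000 with 10.2%, chr15:72920001-72940000 with 10.8% and chr1:158560001-158580000, at the 3′ part of Abl2, with 11.6%. Across the 116 windows the share correlated with the A content at positions 2 to 24 (Pearson's r 0.418, a description, since both come from the same sequences).

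Of 22028 protein-coding genes, 12359 had at least 1 sense A-starting sequence and 352 had 50 or more. The most, 416, matched D10Wsu102e (chr10:82822984-82949027, from the first to the last A-starting sequence, as for the other genes), where 96.6% lay in the 3′ untranslated region and A began 11.96% of its 3477 sequences of this size. Rbbp6 (chr7:130114270-130145848), an RNA 3′ end processing factor, had 299 (27.3%), of which 81.4% lay in coding sequence. Ankrd11 (chr8:125408157-125439916), a chromatin regulator, had 293 (23.3%), with 65.9% in coding sequence, and 1700006A11Rik had 270 (23.6%) at a density of 125 per kb of exon, with 45.4% in coding sequence and 54.3% in the 3′ untranslated region. Eif4ebp2, a translation inhibitor gene, had 227 (17.0%), the RNA helicase gene Ddx19b 219 (17.1%), Trim71, a regulator of stem cell mRNAs, 214 (14.1%), Nemp1, a nuclear envelope protein gene, 206 (15.4%), and the tyrosine kinase gene Abl2 200 (11.5%).

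The 5 noncoding genes with most A-starting sequences had between 403 and 1091. Gm49794 (chr17:27491977-27503892) had 1091 A-starting sequences (18.4%), Gm21269 (chr7:80961467-80983550) had 834 (17.6%), Gm10505 on chromosome 17 had 571 (21.7%), 1700001L05Rik on chromosome 15 had 484 (17.7%) and AC140207.2 on chromosome 18 had 403 (20.03%). Their U shares ran from 48.5% in Gm10505 to 59.6% in 1700001L05Rik. Antisense A-starting sequences were most numerous over CT025671.4 (334 of 1511), CT010467.1 (266 of 979), Gm42811 (215 of 1060) and AY036118 (157 of 569). CT010467.1 and AY036118 overlap Gm42418 of the opposite strand, so sequences counted antisense to them may be sense to it.

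The share beginning with A varied widely between genes. Over 934 genes with 200 or more sequences of 24 to 28 nt the median was 13.4%, with 8.84% at the 10th and 19.6% at the 90th percentile. A share above 25% was found in 21 genes, a share below 10% in 172, and A exceeded U in 3. The highest was Rbm25 (chr12:84987158-85023234) with 44.4% (100 of 225, 37.8 to 51.2%), whose sequences began with U in 37.3%. Rbm39 had 38.0% (32.3 to 44.0%), Nop58 35.3%, Nasp 33.4%, Calr 31.1% and Ndufb9 30.3%. Rbm25 and Rbm39 encode splicing factors, Nop58 a core protein of box C/D snoRNPs, Nasp a histone chaperone, Calr the endoplasmic reticulum chaperone calreticulin and Ndufb9 a subunit of respiratory complex I. In these 6 genes 59.1% (Rbm39) to 100% (Ndufb9) of the A-starting sequences lay in coding sequence, and the sequences were rich in A, with 34.0 to 44.7% at positions 2 to 24.

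In the 6 genes with the lowest shares, the few A-starting sequences came mostly from 3′ untranslated regions. Hrk (chr5:118634904-118638999), a gene of a pro-apoptotic protein, had 4.13% (10 of 242, 1.999 to 7.47%), with all 10 in the 3′ untranslated region and 85.1% of its sequences beginning with U. Abhd2, a lipase gene, had 4.52%, Gprin2 4.53%, Ak4, a mitochondrial adenylate kinase gene, 4.88%, the phosphatase gene Ptpn14 5.70% and Timm29, an inner membrane translocase gene, 5.78%. Their A-starting sequences, between 10 (Hrk) and 20 (Ptpn14) per gene, lay in the 3′ untranslated region in 62.5 to 100%. A share of this kind over all 934 genes was not set beside it. Across the 934 genes the share correlated with A content at positions 2 to 24 (r 0.360, again a description). Most of this came from the genes richest in A. With the genes split into 4 groups of 233 or 234 by A content, A began 13.4%, 13.4%, 13.6% and 16.9% of sequences, from the lowest group to the highest.

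In the median, listed germ cell genes had more A-starting RNAs than listed genes of somatic testis cells, with single genes that overlap. In the median over each list, meiotic genes had 6.18 A-starting sequences per kb of exon, spermatogonial genes 5.19, spermatid genes 4.85 and genes of the piRNA pathway 3.67, against 0.305 over all protein-coding genes. Every gene of these 4 lists had at least 1, as did 12359 of all 22028 protein-coding genes. The 8 Sertoli cell genes had a median of 0.419 with 6 represented, the 6 Leydig cell genes 0.104 with 3 represented, and the 3 peritubular genes had none. Of the 3 macrophage genes only Csf1r had 1 sequence. The 6 housekeeping genes had a median of 2.35, led by Hsp90ab1 with 14.3 and Actb with 4.48, while Gapdh had 0. The difference was not limited to A-starting RNAs. Sequences of 24 to 28 nt with any first base numbered 1447 (piRNA pathway), 917 (spermatogonial), 739 (meiotic) and 175 (spermatid). The Sertoli and Leydig lists had 107 and 60. These totals are not scaled by exon length. A began 15.9% in the Sertoli and 20% in the Leydig list, between the spermatogonial (14.7%) and meiotic (24.4%) shares.

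In the meiotic list Sycp3, a protein of the chromosome axis, had 30.1 per kb (38 sequences, 26.4% of its sequences of this size) and Ldhc, the sperm lactate dehydrogenase gene, 16.5 (26, 21.3%). Spo11, the enzyme of meiotic DNA breaks, had 0.255. In the spermatogonial list Stra8, needed for entry into meiosis, had 16.6 (30, 22.9%), Dazl, a translation regulator of germ cells, 9.69 (37, 17.5%) and the receptor gene Gfra1 0.913 (5, 7.14%). In the piRNA pathway Mael had 15.6 (27, 26.2%), the helicase gene Mov10l1 9.56 (40, 15.3%) and Piwil4 0.743 (4). Insl3, a Leydig cell hormone gene, had 4.82 from 3 sequences, and Star, which moves cholesterol into mitochondria, 1.95 from 8. Among the Sertoli genes Cst12 had 3.05 from 2 sequences, Ctsl 1.54 from 10, and Sox9 and Rhox5 had 0.

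Genes of haploid spermatids differed from the other lists in the first base. Of the 175 sequences of 24 to 28 nt from the 10 spermatid genes, 98 began with A, 56.0% (48.3 to 63.5%), and 46 with U, 26.3%. In the meiotic list A began 24.4% (21.3 to 27.6%), in the piRNA pathway list 19.5%, in the housekeeping list 19.3%, in the spermatogonial list 14.7%, and over all protein-coding genes 16.003%. Only 1 pooled list exists, so this is a description with counting intervals, and it was followed further because of the values seen.

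The pattern held in most genes of the spermatid list. Prm2 (chr16:10791493-10792115), a protamine that packs sperm DNA, had 30 sequences of this size, 22 beginning with A (73.3%, 54.1 to 87.7%) and 0 with U. With 3 counts taken as the limit of a count of 0, this allows a U share of about 10%. Tnp1, a transition protein that precedes the protamines, had 17 of 31 (54.8%) beginning with A and the highest density of the list, 38.9 per kb, against 24.6 for Prm2. Odf1, a protein of the outer dense fibres of the sperm tail, had 22 of 29 (75.9%), and Akap4, of the fibrous sheath of the tail, 13 of 18 (72.2%). Prm1 had 4 of 6 and Tnp2 3 of 5 beginning with A. Neither had a sequence of this size beginning with U, from numbers too small to limit that share. Acr had 2 of 5, Spata18 4 of 7, and Acrv1, the lowest by density with 0.274 per kb, its only 1. Crem, a transcription factor of spermatids, stood apart with 10 of 43 (23.3%) beginning with A and 65.1% with U. Without Crem the list had 88 of 132 beginning with A, 66.7% (57.9 to 74.6%), and 13.6% with U.

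Examples from Prm2 and Odf1, chosen after these values were seen, are the longest A-starting sequences at the starts with most A-starting forms of 24 to 28 nt, with the first A in capitals.
Prm2, coding: Aggaaatgtaggaggcaccatcactaa
Prm2, 3′ untranslated: Acgagatctgagtactgagcaaagcc
Odf1, coding: Aaagaaggtggacagagaattaagac
Odf1, coding, 11 nt upstream: Aggagggacataaagaaggtggacag
The Prm2 sequences lie at chr16:10791663-10791689 and chr16:10791500-10791525 on the minus strand, and the Odf1 sequences at chr15:38149229-38149254 and chr15:38149218-38149243 on the plus strand. The start of the first Prm2 sequence was listed with 4 lengths and the others with 2, 4 and 3.

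The spermatid A-starting sequences differed in other respects from A-starting sequences at large. They averaged 25.9 nt, where A-starting sequences as a whole averaged 26.5 nt. U stood at position 2 in 26.5% of the 98, against 14.1%. This share varied between the other lists too, from 12.1% in the piRNA pathway list (282 sequences) to 29.4% in the Sertoli list (17 sequences). The macrophage list, with 1 sequence, is left out of that range. Their A content at positions 2 to 24 was 31.2%, no higher than the 32.8% of all A-starting sequences. The longer RNAs of these genes are few: of 23 of 29 to 32 nt, 9 began with A, none of the 9 from Crem, against 11.6% of the 441489 of that length in the whole list. From which of the 3 libraries they came is not recorded in the list.

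A search over all genes, also made after these values were seen, found the same share in few others. Of 9054 genes with 20 or more sequences of 24 to 28 nt, 42 (0.464%) had A at the start of 50% or more, 36 of them protein-coding, and A exceeded U in 212. Prm2, Tnp1 and Odf1 are among the 42. Examples picked by hand, with no count of such genes among the 42 or the 9054, are Adam5, a sperm surface protein gene (22 of 30), Rsph1, of the radial spokes of cilia and flagella (30 of 55), Crisp2, of the acrosome and tail (15 of 25), Akap3, of the fibrous sheath (12 of 20), Ppp3r2, a testis calcineurin subunit (13 of 20), Gsg1 (13 of 20) and Spink2, an acrosomal protease inhibitor (12 of 21). Widely expressed genes are also among the 42, such as Aplp2 (30 of 56), the glucose transporter gene Slc2a3 (25 of 47) and Clint1 (21 of 36). In Rpl13 (17 of 30) the A-starting sequences all lay within 1 short stretch of the 3′ untranslated region, chr8:125629094-125629129. The 42 genes together gave 707 A-starting sequences, 0 of them in the 100 richest windows.

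Mitochondrial RNAs, examined because of the values seen, also began mostly with A. Of 197 sequences of 24 to 28 nt placed on the mitochondrial chromosome 125 began with A, 63.5% (56.3 to 70.2%), and 34 with U, 17.3%. The nuclear chromosomes 1 to 19 and X lay between 13.0% (X) and 16.7% (chromosome 17). The Y chromosome, with few sequences, had 62 of 284 (21.8%, 17.2 to 27.1%). The mitochondrial ribosomal RNAs gave most of the A-starting sequences, mt-Rnr2 with 51 of 77 (66.2%) and mt-Rnr1 with 35 of 51 (68.6%), and 7 mitochondrial mRNAs gave 2 to 6 each. An example from each of the main starts of mt-Rnr2, likewise chosen after the values were seen, is shown with the first A in capitals.
mt-Rnr2, position 2052: Aattagggactagcatgaacggctaaac
mt-Rnr2, position 1897: Aagataaaaggaactcggcaaacaagaa
They run from 2052 to 2079 and from 1897 to 1924 of the mitochondrial chromosome, plus strand, and their starts were listed with 6 and 5 lengths. As with the spermatid genes, the mean length of the A-starting sequences was low, 26.2 nt, and U stood at position 2 in 30.4%. At 29 to 32 nt 48 of the 73 mitochondrial sequences began with A, 65.8%.

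Among nuclear structural RNAs, Rn7sk, an RNA that regulates transcription elongation, had 26 A-starting sequences of 71 (36.6%, 25.5 to 48.9%), the rRNA-like CT010467.1 had 23 of 82 (28.0%) and the small nucleolar RNA Snord118 had 20 of 56 (35.7%). The numbers are small beside the 138629 A-starting sequences from protein-coding exons. Of all A-starting sequences 54 (0.0205%) began with the first 18 bases of a mature microRNA of RefSeq, and these came from 32 microRNAs with at most 4 sequences each.

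Few A-starting RNAs had a ping-pong partner in the list. Of the 218589 with a strand, 459 (0.210%, 0.191 to 0.230%) had a sequence of 24 to 32 nt on the opposite strand whose 5′ end overlapped theirs by 10 nt, against 0.325% of U-starting, 0.333% of C-starting and 0.240% of G-starting sequences. A-starting sequences had a higher share than U-starting ones on 1 of 20 chromosomes. A partner that was placed on a different copy of a repeat could not be found. Of the 459, 73.2% lay in the 100 richest windows, which held 26.3% of all A-starting sequences.

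The 10-nt overlap was nevertheless the most frequent one. There were 1049 pairs at 10 nt, 1.95 times the mean of 538 ± 146 (SD over 19 other overlaps of 1 to 20 nt). At an overlap of 1 nt there were 1007 pairs, where the partner's first base lies opposite the first A and must be U. Leaving out that overlap, the mean was 511 ± 94.5 and the next highest number 732, at 9 nt. Counting each 5′ end once gave 342 pairs at 10 nt, 1.36 times the mean of 251, and 461 at 1 nt, so in that count 10 nt was not the highest. Of the 1049 pairs 912 (86.9%, 84.7 to 88.9%) had a partner that began with U. Several pairs can share 1 start, which this interval does not cover. Counting each 5′ end once, the partner began with U in 277 of the 342 pairs. At the overlaps of 2 to 9 and 11 to 20 nt, U began the partner in between 49.7% (14 nt) and 69.6% (12 nt) of pairs of sequences. Pairs with an A-starting partner numbered 37 at 10 nt, below their mean of 73.0 at the other overlaps.

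A at position 10 was found in 78.6% (74.6 to 82.3%) of the A-starting sequences with a partner and in 33.9% of those with a strand and no partner. By base pairing, a U-starting partner at 10 nt lies opposite an A at that position. The excess of A-starting pairs at 10 nt thus came with U-starting partners, as in the 3 pairs printed above.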

How the data were processed

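Small RNAs were recovered from immunoprecipitates, and a gel was used to select RNA near 28 to 30 nt, per the labels. The authors deposited 1 list for the series, in no other unit than a listed sequence: each distinct sequence with 1 position on mm9 (NCBI mouse build 37, per the file headers and the submitters' processing notes), without counts. The list was made with an aligner not given in the sources used here. Strand was inferred from stretches of 12 nt shared by overlapping sequences. Genes were found by an exact seed of 18 nt and a match over the full length in GENCODE M21 transcripts of the listed chromosome, with sequences of several classes split equally. Untranslated and coding parts were taken at the sequence's midpoint, and levels are distinct sequences per kb of merged exon. Windows measured 20 kb. Intervals of shares are exact (Clopper-Pearson, 95%) and cover the counting error alone. Sequences of 1 precursor are not independent. There were no replicates and no tests. Named genes were the 10 protein-coding and 5 noncoding genes with most A-starting sequences, the 6 with the highest and the 6 with the lowest share, the 4 with most antisense ones, and in each gene list the 2 highest and the lowest by density. Of these, 1 gene is not reported here. The members and lists were chosen with earlier results of these data known. Mature microRNAs came from RefSeq. Scripts used Python 3.11.15, numpy 2.4.6 and scipy 1.17.1 and were tested on simulated data.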

Additional observations from a re-analysis of the deposited data

How the results depend on the processing

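Of 33 alternatives to 10 results, 6 stayed within the counting error and 27 moved beyond it. Restricting lengths to 25 to 27 nt gave A at position 10 in 32.3%, a shared 3′ end in 33.4%, U as the next base in 23.2%, 1.24 lengths per 5′ end, protein-coding exons in 51.6% and the 100 windows in 27.2%. Outside the 100 windows U at position 2 was 13.8%, A at position 10 33.2%, a U start 1 nt downstream 8.69%, a shared 3′ end 25.03%, next base U 22.97%, lengths per 5′ end 1.20, protein-coding exons 70.1%, 3′ untranslated share 40.9% and the 10-nt ratio 1.42. Counting each 5′ end once gave 14.6% with U at position 2, 33.1% with A at position 10, 28.3% with a shared 3′ end, 22.7% with U next, 56.6% in protein-coding exons, 19.6% in the 100 windows and a 10-nt ratio of 1.36. The 50 richest windows held 21.2%, and protein-coding exons without the split took 53.4%. With members lacking a strand included, a choice made after seeing the data, a U start lay 1 nt downstream of 8.34% and 27.4% shared a 3′ end. Next bases read from transcripts, also chosen after seeing the data, gave U in 22.7%. At 25 to 27 nt A stood at position 9 in 31.6%, at 10 in 32.3% and at 11 in 30.7%, and in U-starting sequences at position 10 in 30.03%. No paired analysis was possible because each group has 1 library and the list does not separate libraries. The unknown depth limits what absence from the list can show.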
